A study of Oryza sativa with 8 samples.

Results

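WRKY62, WRKY76, WRKY28 and WRKY71 are rice transcription factor genes assigned to group IIa of the WRKY family, and their transcripts were followed across flag leaves of 3 genotypes. The loci were taken by identifier, as Os09g0417800 for WRKY62, Os09g0417600 for WRKY76, Os06g0649000 for WRKY28 and Os02g0181300 for WRKY71, which makes 4 of the 32166 loci in the deposited table. WRKY76 and WRKY62 lie on chromosome 9, where the reference gene table places 0 genes between them, WRKY28 on chromosome 6 and WRKY71 on chromosome 2. The names WRKY62, WRKY76 and WRKY71 passed a check of chromosome and gene order against that table. WRKY28 was not found there, so its name rests on the member list alone.

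WRKY proteins bind W-box DNA through a conserved domain that holds a zinc finger. Those of group IIa also carry a leucine zipper and can pair with themselves and with each other, and in rice several of them are known as repressors of immune responses. WRKY62, also called XB10, binds the immune receptor XA21. WRKY76 lowers phytoalexin gene expression and raises cold tolerance when overexpressed, WRKY28 is known as a negative modulator of basal defence, and WRKY71 represses gibberellin responses in aleurone cells together with WRKY51.

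Messenger RNA was measured in 8 libraries of flag leaves from growth chamber plants of cultivar ZH11. The wild type had 2 libraries, numbered 1 and 3. Every sample title carries the mark CK, which the labels do not explain. The label GSK2-RNAi, for an RNA interference construct directed at the brassinosteroid signalling kinase GSK2, was on 3 libraries. Another 3 had the label GSK2-RNAi_oswrky53, which adds an oswrky53 background and so shares that construct. The harvest was at heading per the sample labels and at booting per the series text. The labels give neither the promoter of the construct, nor the number of transgenic lines, nor the change made in WRKY53, and they do not say whether libraries came from separate plants, so a p-value covers only the spread among these libraries.

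Values are the authors' normalized counts, summed over the transcripts of a locus. Counts at the GSK2 locus (Os05g0207500) went against the label. They were at 105 and 98.5 in the wild type, and at 795, 741 and 820 in the GSK2-RNAi-labelled libraries. In the GSK2-RNAi_oswrky53-labelled libraries they were at 182, 219 and 155. Genotypes are therefore named by their labels, and no difference stands for a lower GSK2 transcript. Whether RNA of the construct itself is counted at this locus was not tested, so the counts need not be the level of the plant's own GSK2 transcript. WRKY53 (Os05g0343400, name not checked) was 1.15 ± 0.26 log2 units above the wild type in the GSK2-RNAi-labelled libraries (SE, limma adjusted p = 0.0152), which did not hold when wild type replicate 3 was left out (adjusted p = 0.0819). Its values were 3992 and 3209 in the wild type, 7396, 7843 and 8560 in the GSK2-RNAi-labelled libraries, and 11611, 7686 and 5971 in the GSK2-RNAi_oswrky53-labelled ones. Both labelled genotypes overlapped (log2 difference 0.03, limma adjusted p = 0.939), and as the labels do not say what was changed in WRKY53, its level does not check that label. Summed normalized counts ran from 20.87 to 28.03 in units of 1e6 per library, lowest in the 3 GSK2-RNAi-labelled libraries, and the approximate depth from 19.87 to 38.68 in units of 1e6 reads. Of the leaf markers with a checked name 4 of 4 were detected. Their summed level was 1049520 to 1134000 in the wild type, 494642 to 622278 in the GSK2-RNAi-labelled libraries and 873981 to 1182330 in the GSK2-RNAi_oswrky53-labelled libraries. Of 7 floral organ markers MADS7 was at 0 in every library, and the summed level of all 7 was 150 to 289, 135 to 275 and 279 to 615 in the same order of genotypes. Of 3 root markers the summed level was 335 to 854, 277 to 417 and 326 to 496, and limma called 0 of them (0 at an unadjusted p under 0.05 in each comparison). Among 4 tested leaf and 4 tested floral markers, GS2, a plastid glutamine synthetase gene, and TDR were called lower in the GSK2-RNAi-labelled libraries than in the wild type. GS2 and TDR were called higher, and MADS3 lower, in the GSK2-RNAi_oswrky53-labelled libraries than in the GSK2-RNAi-labelled ones. Both GS2 calls were lost with quantile normalization (limma adjusted p = 0.0708 and 0.222), the second also without any 1 of the GSK2-RNAi-labelled libraries or GSK2-RNAi_oswrky53 replicate 2 or 3 (up to 0.0939). The first TDR call was lost without wild type replicate 1 (0.0759) and the second without GSK2-RNAi replicate 2 or 3 or GSK2-RNAi_oswrky53 replicate 3 (up to 0.0591). The part of leaf makeup in the values that follow was not tested, and in such bulk samples fewer expressing cells and less RNA per cell cannot be told apart.

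WRKY62 and WRKY76, the neighbouring pair on chromosome 9, were near 0 in every GSK2-RNAi_oswrky53-labelled library and detected at 12.3 normalized counts or more in the other 5. WRKY76 had 2124 and 90.2 normalized counts in the wild type, 281, 705 and 1551 in the GSK2-RNAi-labelled libraries, and 3.30, 4.41 and 1.04 in the GSK2-RNAi_oswrky53-labelled libraries. The last 3 values correspond to about 3, 4 and 1 reads. WRKY62 was at 78.1 and 12.3 in the wild type, at 68.1, 157 and 293 in the GSK2-RNAi-labelled libraries, and at 0, 3.28 and 0 in the GSK2-RNAi_oswrky53-labelled libraries. The second of these last values stands for about 3 reads. For both genes the oswrky53 libraries lay below all others without overlap, while the wild type and the GSK2-RNAi-labelled libraries overlapped. The share of all tested loci that separate in this way was not counted, so the lack of overlap only describes these values.

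WRKY28 and WRKY71 had another order of genotypes. WRKY28 was lowest in the wild type, at 2.89 and 6.64 normalized counts, highest in the GSK2-RNAi-labelled libraries, at 90.8, 46.7 and 76.2, and between them in the GSK2-RNAi_oswrky53-labelled libraries, at 29.7, 18.6 and 8.34. No pair of genotypes overlapped for this gene, but its lowest oswrky53 value and highest wild type value stand for about 8 and 7 reads. WRKY71 was at 185 and 242 in the wild type, at 645, 745 and 769 in the GSK2-RNAi-labelled libraries, and at 991, 533 and 391 in the GSK2-RNAi_oswrky53-labelled libraries. Here the wild type lay below the other 6 libraries, and the 3 oswrky53 libraries spread around the 3 labelled GSK2-RNAi. For WRKY28 and WRKY71 too, such separation was not counted over all tested loci.

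**Figure D1:**
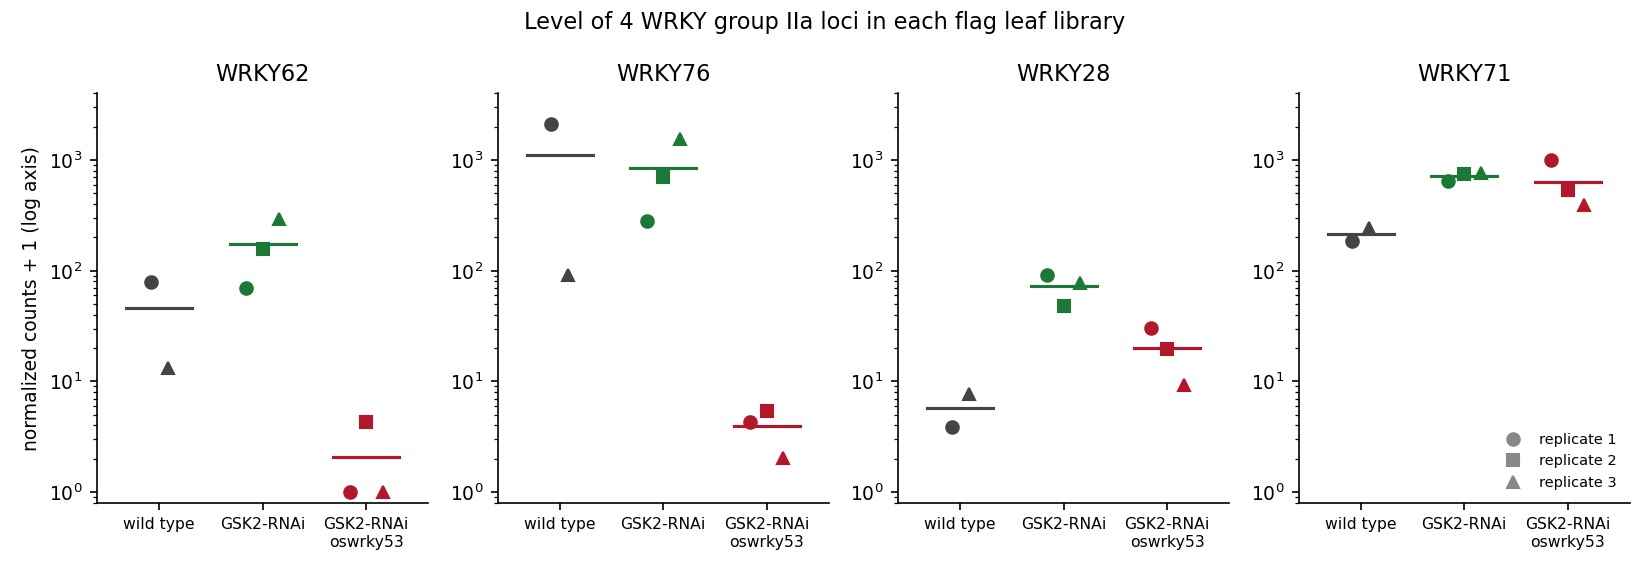
Normalized counts plus 1, on a log axis, of WRKY62, WRKY76, WRKY28 and WRKY71 in each of the 8 flag leaf libraries, grouped by genotype. Symbols mark the replicate number and horizontal lines the group mean. WRKY62 and WRKY76 are at 4.41 or less in all 3 GSK2-RNAi_oswrky53-labelled libraries, WRKY28 is lowest in the wild type, and WRKY71 is at 391 or more in every library outside the wild type.

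The 4 genes also differed in how far libraries of 1 genotype lay apart. In the wild type WRKY76 differed 23.5-fold between the 2 libraries, a gap that 71 of 25325 tested loci (0.280%) equalled or exceeded. WRKY62 differed 6.33-fold in the same direction, with replicate 1 above replicate 3, and 390 loci (1.54%) had as large a gap. WRKY28 differed 2.30-fold and WRKY71 1.31-fold, both with replicate 3 above replicate 1. On the scale of log2(value + 1) the median gap over all tested loci was 0.34. Among the GSK2-RNAi-labelled libraries the highest value exceeded the lowest 5.52-fold for WRKY76 and 4.31-fold for WRKY62, against 1.94-fold for WRKY28 and 1.19-fold for WRKY71. There WRKY76 and WRKY62 were both lowest in replicate 1 and highest in replicate 3. In the oswrky53 libraries the highest value exceeded the lowest 3.56-fold for WRKY28 and 2.54-fold for WRKY71.

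Differences between genotypes were tested with limma on log2(value + 1) across the 25325 loci with at least 10 normalized counts in at least 2 libraries, and called at a Benjamini-Hochberg adjusted p under 0.05. All 4 genes passed this filter. WRKY71 reached 10 in 8 libraries and the others in 5 each, which for WRKY62 and WRKY76 were the wild type libraries and the GSK2-RNAi-labelled ones. For WRKY28 they were the GSK2-RNAi-labelled libraries and GSK2-RNAi_oswrky53 replicates 1 and 2, and no wild type library. WRKY62, WRKY76 and WRKY28 thus passed the filter only through genotypes in which they were higher. With no filter beyond 1 value above 0 the WRKY28 rise given below kept its call (limma adjusted p = 0.00436).

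The comparison of the GSK2-RNAi_oswrky53-labelled libraries with the GSK2-RNAi-labelled ones sets apart genotypes that share the construct by label and differ in the oswrky53 background. They also differed in the counts at the GSK2 locus, which fell by 2.09 ± 0.15 from 785 ± 39.99 to 185 ± 32.2 (limma adjusted p = 0.00067). Differences between these genotypes therefore cannot be assigned to oswrky53 alone. In it 3 of the 4 genes fell and 0 rose, beside 7.7% of all tested loci called lower and 8.78% called higher. The 4 genes were chosen with earlier results of these data known, and WRKY62 and WRKY76 are neighbouring paralogs. Their counts and medians, here and in the other comparisons, are therefore not those of an independent draw from all loci. WRKY76 fell by 7.55 ± 1.08 on the log2(value + 1) scale (SE, limma adjusted p = 0.00511), from a mean of 846 ± 647 normalized counts to 2.92 ± 1.72 (SD, n = 3 each). Of the 25325 fitted differences, 1 was lower. WRKY62 fell by 6.50 ± 0.87 (SE, limma adjusted p = 0.00402), from 173 ± 113 to 1.09 ± 1.90 (SD, n = 3 each), which ranked 6 from the lowest. With levels of a few reads or 0 in 1 group, the size of both differences depends on the pseudocount of 1, and no fold is given. With a pseudocount of 10 WRKY76 differed by -5.74 and WRKY62 by -3.85, and both calls held under every alternative setting and with each library left out, at an adjusted p of at most 0.0248.

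WRKY28 fell in the same comparison by 1.97 ± 0.52 log2 units (SE, limma adjusted p = 0.0371), from 71.3 ± 22.5 to 18.9 ± 10.7 normalized counts (SD, n = 3 each). Its direction held throughout, but it missed the threshold without GSK2-RNAi replicate 1, 2 or 3 (limma adjusted p = 0.116, 0.0695 and 0.108) and without GSK2-RNAi_oswrky53 replicate 2 or 3 (0.0737 and 0.0920). WRKY71 differed by -0.28 ± 0.30 (SE, limma adjusted p = 0.572), with a 95% interval of the difference from -0.97 to 0.42. Its means were 719 ± 65.9 and 638 ± 314 (SD, n = 3 each), and without GSK2-RNAi_oswrky53 replicate 3 the difference was 0.019. The median log2 difference of the 4 genes was -4.24, beside -0.01 over all tested loci.

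In the GSK2-RNAi-labelled libraries against the wild type the genes that rose were WRKY28 and WRKY71. They make 2 of 4 higher and 0 lower, beside 13.3% of all tested loci called higher and 11.6% called lower. WRKY28 rose by 3.68 ± 0.58 log2 units (SE, limma adjusted p = 0.00365), from 4.77 ± 2.65 (SD, n = 2) to 71.3 ± 22.5 (SD, n = 3), a 14.9-fold higher mean over wild type values of about 4 and 7 reads. WRKY71 rose by 1.76 ± 0.34 (SE, limma adjusted p = 0.00789), from 213 ± 40.3 (SD, n = 2) to 719 ± 65.9 (SD, n = 3), a 3.37-fold higher mean. The call of WRKY28 held in every alternative, with adjusted p up to 0.0266, although the difference was 2.43 with a pseudocount of 10, and that of WRKY71 was lost without wild type replicate 1 (limma adjusted p = 0.0525).

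For WRKY62 and WRKY76 the same comparison did not pass the threshold. WRKY62 differed by 2.18 ± 0.97 (SE, limma adjusted p = 0.138), with means of 45.2 ± 46.5 (SD, n = 2) and 173 ± 113 (SD, n = 3) and an interval from -0.05 to 4.41. WRKY76 differed by 0.62 ± 1.21 (SE, limma adjusted p = 0.749), with means of 1107 ± 1438 and 846 ± 647 and an interval from -2.16 to 3.39. Its direction depended on which wild type library was used: the difference was -1.65 when replicate 3 was left out (limma adjusted p = 0.244) and 2.89 when replicate 1 was left out (0.0732). The median of the 4 genes was 1.97, beside 0.02 over all tested loci.

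Between the GSK2-RNAi_oswrky53-labelled libraries and the wild type 0 of the 4 genes passed the limma threshold, where 0.308% of all tested loci were called higher and 0.0276% lower. All 4 had an unadjusted p under 0.05, as had 3283 of the 25325 loci. WRKY76 differed by -6.93 ± 1.21 log2 units (SE, limma adjusted p = 0.0718), the lowest of all fitted differences, and passed the threshold without wild type replicate 3 (-9.20, adjusted p = 0.0100). WRKY62 differed by -4.32 ± 0.97 (SE, limma adjusted p = 0.142). The others were above the wild type, WRKY71 by 1.48 ± 0.34 (SE, limma adjusted p = 0.147) and WRKY28 by 1.70 ± 0.58 (SE, limma adjusted p = 0.281). The 3 comparisons share libraries, so their values for a gene are not independent of each other.

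**Figure D2:**
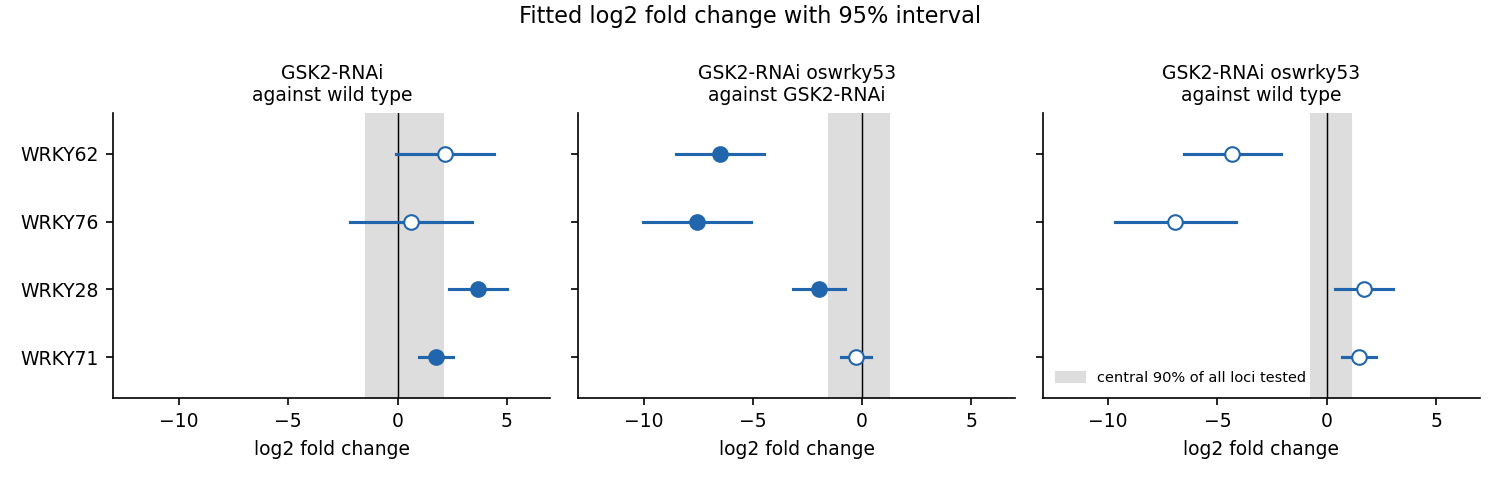
Fitted log2 fold change on the log2(value + 1) scale, with its 95% interval, of the 4 genes in the 3 comparisons of genotypes. Filled points passed a limma adjusted p of 0.05 and the grey band spans the central 90% of all 25325 tested loci. WRKY62 and WRKY76 lie at -6.50 and -7.55 in the middle panel, far outside the band, and WRKY71 lies inside it at -0.28.

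Ratios between the genes within a library depend little on how libraries were scaled, and were taken as differences of log2(value + 1). The log2 ratio of WRKY76 to WRKY71 was -0.09 ± 1.10 in the GSK2-RNAi-labelled libraries and -7.35 ± 0.65 in the GSK2-RNAi_oswrky53-labelled libraries (SD, n = 3 each). That of WRKY28 to WRKY71 was -3.37 ± 0.58 and -5.06 ± 0.31 in the same order. Of the 6 possible pairs of genes, 5 had ratios that did not overlap between these genotypes, each with p = 0.1 in an exact two-sided permutation test, the smallest that 3 against 3 libraries allow, and 0.12 after Benjamini-Hochberg adjustment over the 6 pairs. The exception was WRKY62 to WRKY76, whose log2 ratio differed by 1.04 (exact permutation p = 0.2, adjusted 0.2), where the oswrky53 values rest on 0 to 4 reads. The pairs share genes, so they are not separate results, and such ratios were not counted over other loci. Those of WRKY62 or WRKY76 to WRKY28 or WRKY71 follow from the fall of the chromosome 9 genes already given. That of WRKY28 to WRKY71 likewise follows from the differences already given for both genes. The plain ratio of WRKY76 to WRKY62 was 4.13, 4.50 and 5.29 in the GSK2-RNAi-labelled libraries. In the wild type it was 27.2 in replicate 1 and 7.31 in replicate 3, so the pair was close to proportional in the first of these genotypes and not in the second. These are ratios of counts, not corrected for transcript length, and the genes are paralogs between which the authors' counting could divide reads.

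Over the 8 libraries the log2 values of WRKY62 and WRKY76 had a Pearson r of 0.96, and those of WRKY28 and WRKY71 one of 0.87. Across the 2 sets r was 0.36 for WRKY62 with WRKY28, 0.17 for WRKY76 with WRKY28, -0.02 for WRKY62 with WRKY71 and -0.18 for WRKY76 with WRKY71. The points share the 3 genotypes, so these values describe the pattern and carry no test. Among 19080 loci with a mean of at least 50, WRKY62 ranked 5 in likeness to WRKY76, and WRKY76 ranked 6 in likeness to WRKY62. Among 75 such loci with a checked name the next most like after each other were, for both, SGT1, an immune co-chaperone (r = 0.85 with WRKY62 and 0.70 with WRKY76), and NPR1, a salicylic acid response regulator (r = 0.84 and 0.73). For WRKY28 they were CAD2, a lignin pathway dehydrogenase (r = 0.93), the gibberellin receptor gene GID1 (r = 0.93) and GSK2 (r = 0.93). For WRKY71 they were the cytokinin oxidase gene CKX9 (r = 0.95), WRKY24 (r = 0.92) and the cold response factor gene DREB1B (r = 0.88).

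WRKY62 and WRKY76 are known for alternative splicing, and both had more than 1 deposited transcript. WRKY76 had 4, of which transcripts 01 and 02 carried its counts. Transcript 04 was at 0 in every library and transcript 03 above 0 only in GSK2-RNAi_oswrky53 replicate 2, at 4.41. Transcript 01 held 47.1% and 75.8% of the WRKY76 sum in wild type replicates 1 and 3, and 21.5%, 66.5% and 38.4% in the GSK2-RNAi-labelled libraries. For WRKY62 transcript 01 held 26.9% and 15.4% in the wild type and 9.52%, 34.5% and 32.5% in the GSK2-RNAi-labelled libraries. The shares thus overlapped between these genotypes for both genes, and transcript 02 was the larger one of WRKY62 in each of the 5 libraries.

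Both main transcripts of the pair were low in the oswrky53 libraries. WRKY76 transcript 02 was at 0 in all 3, and transcript 01 at 3.30, 0 and 1.04 normalized counts. In a fit over 30566 transcripts, transcript 02 of WRKY76 fell by 8.53 on the log2 scale against the GSK2-RNAi-labelled libraries (limma adjusted p = 0.00827) and transcript 01 fell by 6.97 (adjusted p = 0.0119). WRKY62 transcript 02 was at 0 in all 3 and fell by 6.77 (limma adjusted p = 0.00294). Transcript 01 of WRKY62, at 0, 3.28 and 0, differed by -4.39 and did not pass (limma adjusted p = 0.0507). WRKY28 and WRKY71 had 1 transcript each, and over transcripts the WRKY28 difference did not pass either (limma adjusted p = 0.0509).

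**Figure D3:**
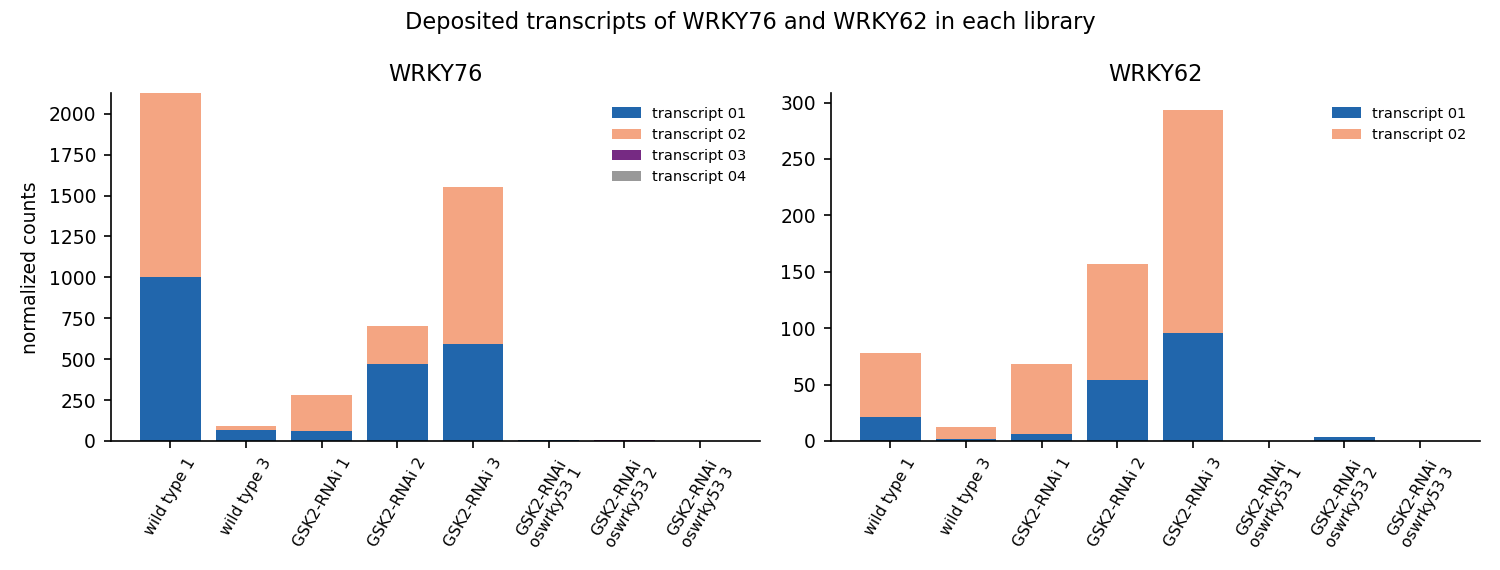
Normalized counts of each deposited transcript of WRKY76 (left) and WRKY62 (right), stacked, in the 8 libraries. The height of a bar is the sum for the locus. Wild type replicate 1 holds 2124 counts of WRKY76 against 90.2 in replicate 3, and the 3 GSK2-RNAi_oswrky53-labelled libraries hold at most 4.41 of either gene.

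The tested loci around the pair did not show a fall of its size in the oswrky53 libraries. Loci with low counts could not have shown one on the log2(value + 1) scale. Among these was Os09g0417500, with a mean of 34.5 in the GSK2-RNAi-labelled libraries. Of the 20 nearest loci of the table, 10 on each side of the pair, 16 could be tested. Against the GSK2-RNAi-labelled libraries 1 of them rose and 0 fell by limma, beside 8.78% of all tested loci called higher and 7.7% lower. Their log2 differences ran from -1.17 to 1.16, and 2 were lower at an unadjusted p under 0.05. Against the wild type limma called 0 of them, beside 0.308% of all tested loci higher and 0.0276% lower. Log2 differences there ran from -1.49 to 0.83, and 1 had an unadjusted p under 0.05. The lowest of these differences was that of Os09g0416500. This locus was at 467 and 412 in the wild type, at 333, 312 and 346 in the GSK2-RNAi-labelled libraries, and at 431, 96.6 and 89.7 in the GSK2-RNAi_oswrky53-labelled ones. The locus just before WRKY76, Os09g0417500, had 25.9 and 26.5 normalized counts in the wild type, 34.6, 39.4 and 29.5 in the GSK2-RNAi-labelled libraries, and 24.1, 28.3 and 14.7 in the GSK2-RNAi_oswrky53-labelled libraries. The locus just after WRKY62, Os09g0418000, was at 279 and 162, then 218, 301 and 416, then 197, 439 and 312 in the same order. Both immediate neighbours were thus expressed in all 3 oswrky53 libraries. Around WRKY28, 3 of 19 tested neighbours fell and 2 rose against the GSK2-RNAi-labelled libraries, and around WRKY71 1 of 17 fell and 0 rose. Beside the shares of all tested loci in that comparison, counts of so few loci do not set these regions apart.

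**Figure D4:**
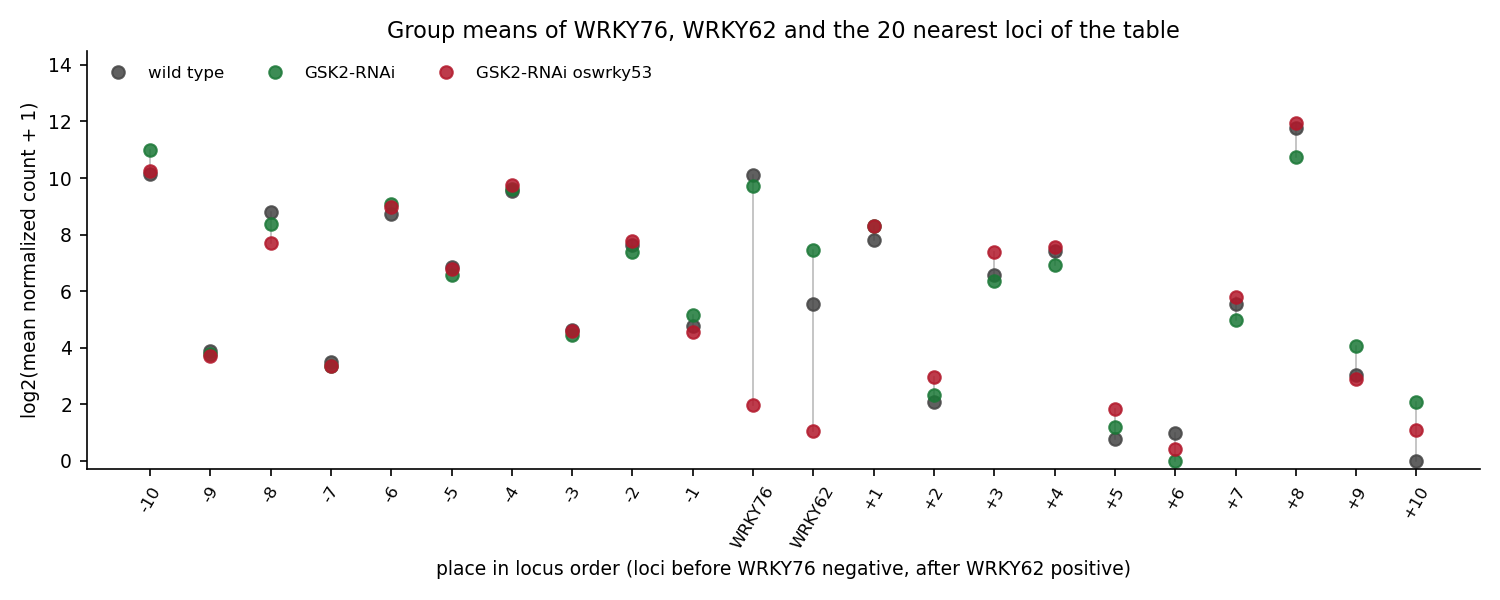
Group means, as log2(mean normalized count + 1), of WRKY76, WRKY62 and the 10 loci on each side in the order of their identifiers. Points are the 3 genotypes and grey lines join the highest and lowest mean. WRKY76 and WRKY62 drop to means of 2.92 and 1.09 in the GSK2-RNAi_oswrky53-labelled libraries, while the tested neighbours differ from the GSK2-RNAi-labelled libraries by no more than 1.17 on the fitted log2 scale. Neighbours with low counts could not show as large a fall.

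How often such a pattern occurred was counted with limits chosen after the values were seen. Of 32166 loci, 6 were at 5 or less in all 3 oswrky53 libraries and at 10 or more in the other 5, and WRKY62 and WRKY76 were the loci of chromosome 9 among them. The same limits with the wild type as the low genotype held for 28 loci. There low values were needed in 2 libraries instead of 3, so the counts for both genotypes are not like for like. With 50 or more in the other 5 libraries 2 loci were left, WRKY76 and Os08g0332100 on chromosome 8, against 9 low in the wild type. That locus had 355 and 230 normalized counts in the wild type, 58.4, 51.2 and 73.0 in the GSK2-RNAi-labelled libraries, and 4.39, 2.18 and 4.18 in the others, so unlike WRKY76 it separated all 3 genotypes.

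Of 37 further WRKY genes written down only WRKY24 and WRKY51 had a checked name, and the rest were not used. These 2 rose in the GSK2-RNAi-labelled libraries against the wild type, as WRKY71 did, and do not stand for the family. For these lists, as for the members, the shares over all tested loci are 13.3% higher and 11.6% lower in that comparison, and 8.78% higher and 7.7% lower between the labelled genotypes. WRKY51, which acts with WRKY71 in aleurone cells, had 1208 ± 27.6 normalized counts in the wild type and 2330 ± 291 in the GSK2-RNAi-labelled libraries, a rise of 0.94 ± 0.14 log2 units (SE, limma adjusted p = 0.00257). Like WRKY71 it was not called between the GSK2-RNAi_oswrky53-labelled libraries, at 2047 ± 160, and the GSK2-RNAi-labelled ones (log2 difference -0.18, limma adjusted p = 0.340). WRKY24 was at 52.4 ± 0.37, 336 ± 177 and 253 ± 98.6 in the order wild type, GSK2-RNAi and GSK2-RNAi_oswrky53, and rose by 2.54 in the first comparison (limma adjusted p = 0.00566). Of 6 tested gibberellin and abscisic acid genes, which include WRKY51, 3 rose and 0 fell in the GSK2-RNAi-labelled libraries against the wild type, with a median log2 difference of 0.56. The others that rose were GID1 and, except without wild type replicate 1 (limma adjusted p = 0.0660), the abscisic acid synthesis gene NCED3. Between the labelled genotypes 1 rose and 1 fell, with a median of -0.22. The gibberellin response repressor gene SLR1 rose by 0.62 (limma adjusted p = 0.0104), a call that scaling to equal totals ended (0.31, adjusted p = 0.0680). GID1 differed by -0.37 at limma adjusted p = 0.0493, and this call was lost without any 1 of the 6 libraries compared (up to 0.145), with eBayes without trend, with a pseudocount of 0.1 and with no filter beyond 1 value above 0. GAMYB, whose product activates gibberellin responses in aleurone cells, was at 184 ± 14.0, 220 ± 33.2 and 207 ± 24.7 and was not called (limma adjusted p = 0.359).

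Genes of the defence responses that group IIa factors are known to restrain were called in both directions, with shares to be read against those over all tested loci given above. Of 7 immune signalling genes, with median log2 differences of 0.25 and then -0.16, 3 rose and 1 fell in the GSK2-RNAi-labelled libraries against the wild type, and 1 rose and 2 fell in the GSK2-RNAi_oswrky53-labelled libraries against the GSK2-RNAi-labelled ones. NPR1 was at 158 ± 59.3, 512 ± 128 and 133 ± 23.5 in the order of genotypes above, rising by 1.71 (limma adjusted p = 0.00488) and then falling by 1.92 (limma adjusted p = 0.00421). The kinase gene MPK3 rose in the first comparison. So did SGT1, except without GSK2-RNAi replicate 2 or 3 or either wild type library (limma adjusted p up to 0.0983) or with eBayes without trend (0.0518), and SGT1 fell in the second. The GTPase gene RAC1 moved in opposite directions to NPR1, at 244 ± 135, 34.7 ± 19.6 and 222 ± 125. It differed by -2.84 and then by 2.63 (limma adjusted p = 0.0176 and 0.0224). Its call missed the threshold without wild type replicate 3 in the first comparison (adjusted p = 0.105) and without replicate 2 or 3 of either labelled genotype in the second (up to 0.0713).

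Of 9 tested diterpenoid phytoalexin genes 2 rose and 2 fell in each of these comparisons, with median log2 differences of 0.18 and -1.0. That is 22.2% each way, beside 13.3% and 11.6%, then 8.78% and 7.7%, of all tested loci. CPS4, a synthase at the start of momilactone formation, was at 6.65 ± 5.33, 179 ± 97.8 and 7.98 ± 5.22, and fell by 4.38 in the second comparison (limma adjusted p = 0.00753). CYP71Z7 also rose in the first, from 0.36 ± 0.51 to 61.3 ± 47.0. CPS2 was at 687 ± 308, 169 ± 109 and 782 ± 470, and KSL5 at 122 ± 66.8, 29.2 ± 6.67 and 156 ± 113. Both rose in the second comparison, by 2.28 and 2.18 (limma adjusted p = 0.0417 and 0.0225). Several calls of this list, those of CPS2 and KSL5 among them, depended on single libraries or on the processing. The falls of KSL5 and KSL6 in the first comparison missed the threshold without wild type replicate 3 or GSK2-RNAi replicate 2 or 3, and that of KSL5 also without GSK2-RNAi replicate 1 (limma adjusted p up to 0.204). That of KSL5 was also lost with eBayes without trend (0.0583) and with equal totals (0.0539). In the second comparison the rise of KSL5 missed it without any 1 of the GSK2-RNAi-labelled libraries (up to 0.0866). The rise of CPS2 and the fall of CYP71Z7 missed it without replicate 2 or 3 of either labelled genotype, and CYP71Z7 also without GSK2-RNAi replicate 1 (up to 0.110 and 0.159). With eBayes without trend both were lost too (0.0751 and 0.0511), and that of CYP71Z7 also with a pseudocount of 0.1 (0.117) and with quantile normalization (0.0529). Of 10 defence protein genes written down only 2 had a checked name, the neighbouring chitinase genes CHT1 and CHT3, between which reads could be divided. Both rose in the first comparison and fell in the second, CHT3 from 204 ± 178 to 4.63 ± 3.06 with a log2 difference of -4.98 (limma adjusted p = 0.00755). The fall of CHT1 missed the threshold without GSK2-RNAi replicate 2 or 3 or GSK2-RNAi_oswrky53 replicate 1 or 2 (adjusted p up to 0.0663). WRKY62 and WRKY76 fell in the same comparison as CPS4 and CHT3, in which RAC1, CPS2 and KSL5 rose. No test of a link between any of these genes was made.

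Of 9 cold and jasmonate genes, with median log2 differences of 2.20 and then -0.29, 4 rose and 0 fell in the GSK2-RNAi-labelled libraries against the wild type, where WRKY76 was not called, and 0 rose and 1 fell in the comparison in which it fell. The jasmonate repressor gene TIFY11D rose by 2.92 in the first (limma adjusted p = 0.00117), from 9.85 ± 0.45 to 84.0 ± 26.7, and the allene oxide synthase gene AOS2 went from 0.72 ± 1.02 to 335 ± 155. The others that rose were TIFY11B and, except without GSK2-RNAi replicate 2 or wild type replicate 1 (limma adjusted p up to 0.0776), the jasmonate receptor gene COI1A. The gene that fell was TIFY11D, which missed the threshold without any 1 of 5 of the 6 libraries compared, the exception being GSK2-RNAi replicate 3 (adjusted p up to 0.0925). The cold response genes DREB1A, DREB1B and DREB1C were not called in either comparison. DREB1B, among the loci most like WRKY71, was at 151, 19.3 and 10.5 in the oswrky53 libraries, where WRKY71 was at 991, 533 and 391, both highest in replicate 1. Between the GSK2-RNAi_oswrky53-labelled libraries and the wild type limma called 0 of the 34 tested genes of these lists, of which 11 had an unadjusted p under 0.05, all higher.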

How the data were processed

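Flag leaf mRNA of 8 rice libraries, prepared with a TruSeq kit from total RNA per the labels, was grouped by genotype label. For 38335 transcripts the authors deposited normalized counts, used here as a signal. DESeq2 1.26.0, kallisto 0.46.1 and build IRGSP-1.0 are in the submitters' processing notes, without roles, and how values were normalized is not given in the sources used here. In each library, low values fell close to whole steps, and a step was read as roughly 1 read: 68.8% to 98.7% of values up to 20 steps lay within 0.1 step. Whole reads were not recovered, so no count model was run, and approximate reads carry no interval.

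Transcripts were summed per locus, filtered at 10 in 2 libraries and fitted as log2(value + 1) in R 4.3.3 with the limma 3.58.1 functions lmFit, contrasts.fit and eBayes (with trend) over all 8 libraries, with Benjamini-Hochberg adjustment over all 25325 loci. With that added 1, a log2 fold change is too small for low genes. The wild type group of 2 shares its spread with the others. The fit was tested on simulated data. Ratios were compared with exact permutation tests in scipy 1.17.1, with numpy 2.4.6, pandas 2.3.3 and matplotlib 3.10.9 in Python 3.11.15. Libraries of 1 genotype correlated at 0.95 to 0.97 and none was a copy of another.

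The members and gene lists were chosen with earlier results of these data known. Of 176 name and identifier pairs, written by hand, 104 passed the check against a reference table of assembly ASM3414082v1 (same chromosome, matching order within 2 Mb). The others, 64 absent from that table, 4 with a different chromosome and 4 out of order, were not used, apart from WRKY28 and WRKY53. The order check cannot tell neighbouring paralogs apart. Named were the 4 members, GSK2 and WRKY53, up to 4 called genes of each list, immediate neighbours and the 3 checked genes most like each member. Os08g0332100, Os09g0416500, GAMYB, DREB1A and DREB1C were named after their values were seen. Coordinates and sequences are not used here, and the builds of the files and the reference table differ. Alternatives were 2 pseudocounts, 2 filters, 2 scalings, eBayes without trend, a replicate block and each library left out.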

Additional observations from a re-analysis of the deposited data

How the results depend on the processing

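The falls of WRKY62 and WRKY76 in the GSK2-RNAi_oswrky53-labelled libraries against the GSK2-RNAi-labelled ones and the rise of WRKY28 in the GSK2-RNAi-labelled libraries against the wild type kept direction and call in all 16 alternatives. With each library left out in turn, WRKY62 ranged from -7.20 to -6.01 and WRKY76 from -8.18 to -6.95 in the first comparison, and WRKY28 from 3.19 to 4.16 in the second. Under the other settings the WRKY28 rise ranged from 2.43, with a pseudocount of 10, to 4.02, with equal totals. The WRKY28 fall ranged from -2.37 to -1.51 (limma adjusted p from 0.0278 to 0.116), the WRKY71 rise from 1.56 to 1.95 (0.00141 to 0.0525), the WRKY76 difference from -1.65 to 2.89 in the GSK2-RNAi-labelled libraries against the wild type and from -9.20 to -4.66 in the GSK2-RNAi_oswrky53-labelled libraries against it (0.0100 to 0.171), and the WRKY71 difference between both labelled genotypes from -0.65 to 0.019.

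No pairing by replicate number was seen: deviations of same-numbered libraries of both labelled genotypes correlated at -0.04, -0.06 and 0.04. Those of the wild type correlated at -0.20 and -0.21 with the GSK2-RNAi-labelled libraries and at 0.15 and -0.15 with the GSK2-RNAi_oswrky53-labelled ones. Deviations within groups of 2 or 3 libraries are constrained to sum to 0, so these values cannot show that the numbers mark no batch. With the replicate block the WRKY28 fall stayed at -1.97 with limma adjusted p = 0.0817, all other calls of the 4 genes held, and 3894, 2621 and 32 loci were called instead of 6290, 4172 and 85 in the order GSK2-RNAi against wild type, GSK2-RNAi_oswrky53 against GSK2-RNAi and GSK2-RNAi_oswrky53 against wild type. Among the other named genes the block ended the calls of KSL5, KSL6 and COI1A in the first comparison (limma adjusted p = 0.0628, 0.0633 and 0.0557) and of RAC1, CPS2, CYP71Z7, GID1, TIFY11D and GS2 in the second (0.0502, 0.0722, 0.0941, 0.0946, 0.0639 and 0.0664). Leaving out libraries gave 3670 to 6911, 1575 to 4354 and 53 to 64, by over 1.5 times fewer without GSK2-RNAi replicate 2 or wild type replicate 1 in the first, without any GSK2-RNAi-labelled library or without GSK2-RNAi_oswrky53 replicate 3 in the second, and without either wild type library or GSK2-RNAi_oswrky53 replicate 2 in the third. Scaled to equal totals 9515 and 7338 loci were called in the first and second comparison, of which 84.6% and 15.6% were higher instead of 53.5% and 53.3%, and the median of all loci moved to 0.40 and -0.32. No member's call changed there. The WRKY53 difference between both labelled genotypes (0.03) changed sign with equal totals (-0.28), quantile normalization (-0.32) and without replicate 1 of either genotype, and ranged from -0.23 to 0.25 with each library left out. The causes of these changes were not tested. Alternatives for genes other than the 4 members were chosen after seeing the data. Depth limits WRKY62 and WRKY76 in the oswrky53 libraries and WRKY28 in the wild type, where values rest on 0 to 7 reads.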
